A study of Mus musculus with 34 samples.

Results

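The effect of a Pdgf-c transgene on liver RNA was compared between 2 ages. The transgene effect at an age is the log2 signal in transgenic (Tg) liver minus that in wild-type (WT) liver, and the quantity described here is the effect at week 48 minus the effect at week 20. The 19 arrays that enter this difference, of 34 in the series, are those whose labels name neither tumour nor peretinoin. They comprise 5 Pdgf-c Tg and 4 WT livers at week 48, and 5 Pdgf-c Tg and 5 WT livers at week 20. WT mice were labelled C57/B6, while the strain of the others is given only as Pdgf-c Tg. Mice were weaned at week 4 onto a basal diet or one containing peretinoin (0.06%), an acyclic retinoid, and the WT labels name no diet. The labels give neither the promoter of the transgene nor the number of founder lines. They also do not say that each sample is a separate animal, so the p-values measure the spread between samples. That spread was estimated over all 34 arrays. A second set of 10 Tg livers, 5 at each age, came from mice on the peretinoin diet and was used for 1 side comparison.

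PDGF-C is secreted in a latent form and, once its CUB domain is cut off, binds the PDGF alpha receptor on mesenchymal cells. In liver these are chiefly stellate cells, which store retinoids at rest and, when activated, divide, contract and lay down collagen, elastic fibres and proteoglycans. Resident Kupffer cells and recruited monocytes take part in such scars, and hepatocytes can re-enter the cell cycle in chronic injury. The comparison asks which of these changes gained and which lost size as the mice aged.

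Liver identity was plain in all 19 arrays. The mean log2 signal of 9 hepatocyte markers lay between 14.4 and 14.49 in Tg liver at week 48, between 14.62 and 14.89 in WT liver at week 48, between 14.25 and 14.71 in Tg liver at week 20 and between 14.67 and 14.89 in WT liver at week 20. Skeletal muscle transcripts were high in Tg week 48 replicate 4 (mean log2 13.46 over 13 genes) and WT week 48 replicate 4 (11.43), and lay at 8.03 in Tg week 48 replicate 1, against 5.69 to 5.76 in the remaining Tg arrays at week 48. Pancreatic acinar transcripts were high in Tg week 48 replicate 4 (11.34) and Tg week 20 replicate 5 (11.06). The 3 arrays at 11.06 or more are those counted below as carrying another tissue, by a limit of 3 log2 units above the median of the 19 arrays that was set after seeing the data and that leaves Tg week 48 replicate 1 in. The ratio of 3' to 5' Actb signal, a measure of RNA integrity, was between 1.30 and 1.57 in Tg and between 1.39 and 1.71 in WT liver at week 48. At week 20 it was between 1.62 and 1.75 in Tg and between 1.81 and 2.16 in WT liver, so it moved with both age and genotype, and its part in the results was not tested beyond a fit that carried it as a covariate. The transgene itself was not checked, because whether the Pdgfc probe set covers it is not given. Pdgfc gave signals of 1218.8, 828.5, 517.2, 578.2 and 846.2 in Tg liver and 481.2, 518.9, 469.1 and 458.2 in WT liver at week 48. At week 20 the signals were 386.3, 376, 321.1, 284.1 and 210 in Tg and 362.5, 258.9, 317.2, 331.9 and 411.7 in WT liver, and the groups overlapped at both ages. The Pdgfc effect was 0.645 at week 48 (limma adjusted p = 0.0272) and -0.103 at week 20 (adjusted p = 0.757). Its difference of 0.75 ± 0.29 was not called (adjusted p = 0.263).

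Few single genes passed the test of the difference, although the transgene effect was large at each age. Of 13099 genes tested with limma, 36 were called at an adjusted p under 0.05 (0.275%). The calls were 18 higher (0.137%) and 18 lower (0.137%) at week 48. At an unadjusted p under 0.05 there were 776 higher (5.92%) and 947 lower (7.23%), where chance gives 655 genes in all. The transgene effect by itself was called for 2720 genes at week 48 (20.8%; 1858 higher, 14.2%, and 862 lower, 6.58%) and for 3102 at week 20 (23.7%; 2071 higher, 15.8%, and 1031 lower, 7.87%). Among 1183 genes higher in Tg liver at both ages the median effect was 1.07 at week 48 and 1.06 at week 20, and 586 of them (49.5%) had the smaller effect at week 48. Among 340 genes lower at both ages the medians were -0.55 and -0.55, and 152 (44.7%) had the smaller effect at week 48. The median standard error was 0.26 for the difference, against 0.19 for the effect at week 48 and 0.18 for that at week 20, so a difference has to be larger than an effect to be called.

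**Figure D1:**
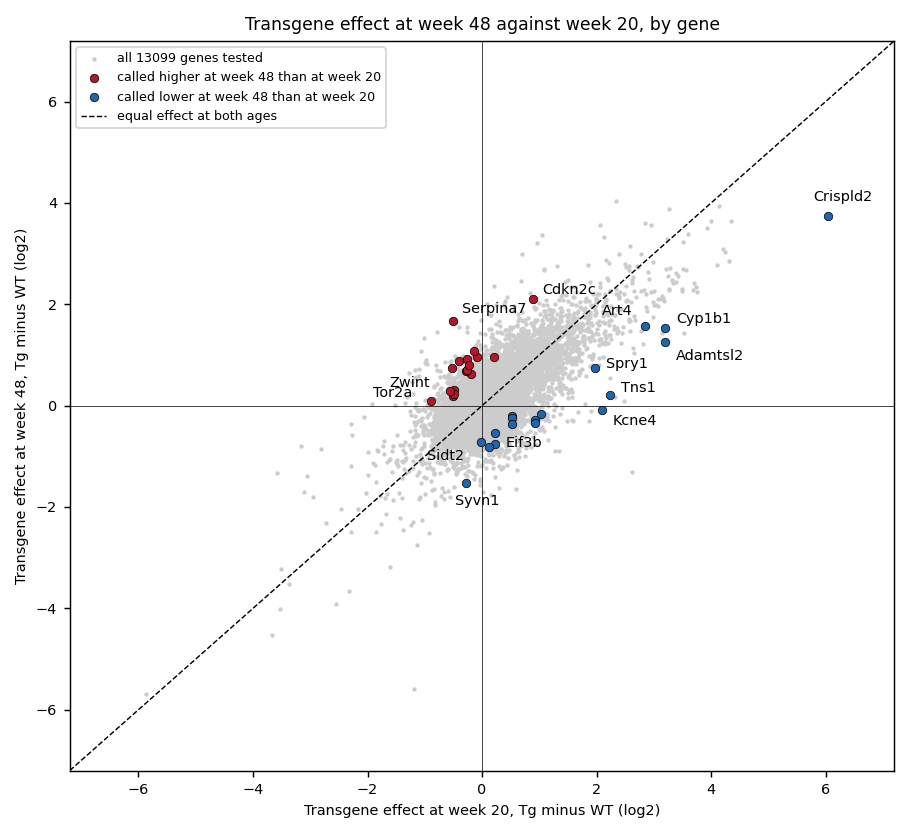
Transgene effect at week 48 (vertical axis, log2) against that at week 20 (horizontal axis, log2) for each of 13099 genes, with the 35 named genes called in the difference in colour and a dashed line of equal effects. The 18 genes called lower at week 48 lie below the line, with Crispld2 at 6.04 on the horizontal and 3.75 on the vertical axis, and those called higher lie above it.

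The number of calls rests on single arrays and on the scaling. It was 12 without Tg week 20 replicate 2 and 13 without replicate 3. It was 15, 16 and 13 without WT week 48 replicate 2, 3 or 4, and 23, 16, 22 and 16 without Tg week 48 replicate 1, 3, 4 or 5. It was 20, 66, 15 and 22 without WT week 20 replicate 1, 2, 3 or 5. Without the 3 arrays that carried another tissue it was 9 (7 higher, 2 lower), all of them among the 36: Serpina7, Exph5, Cdkn2c, Ccnq, Rpa3, Zwint, H2az2, Crispld2 and Tns1. Centring each array on its median moved the median difference of all genes to 0.19, against -0.02, and turned the split to 55 higher and 5 lower (Crispld2, Tns1, Adamtsl2, Cyp1b1 and Ace). The same centring gave 2234 higher and 410 lower at week 48, and 1419 higher and 1619 lower at week 20; quantile normalisation gave 1523 higher and 1262 lower at week 20. For change with age, median centring gave 1199 higher and 547 lower in Tg liver, against 785 and 1278 without it, and 168 higher and 779 lower in WT liver, against 316 and 585. With the Actb ratio as a covariate, 34 genes were called, 32 of them among the 36. Rpa3, H2az2, Ccnq and Tns1 stayed called in all 32 alternative settings, and no named gene among the 36 changed direction in any of them.

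The genes called lower at week 48 fall into 3 kinds. For 5 of the 18 the transgene effect was called at both ages and was smaller at week 48. For 8 it was called at week 20 only, and for 5 it was called at week 48 only, as a lower signal in Tg than in WT liver. All 5 genes of the first kind were higher in Tg than in WT liver at each age.

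Crispld2, a secreted cysteine-rich protein, was high in Tg liver and close to the offset of 16 in most WT arrays. Its signals were 795.5, 501.6, 586.1, 945.3 and 423.1 in Tg liver and 11.9, 25.1, 18.9 and 111.2 in WT liver at week 48. At week 20 they were 2726.1, 1407.1, 1779.2, 2335.6 and 1642.7 in Tg liver and 17.7, 13.4, 12.1, 10.9 and 13.4 in WT liver. Every Tg array lay above every WT array at each age, and every Tg array at week 20 lay above every Tg array at week 48. The effect was 3.75 ± 0.32 at week 48 and 6.04 ± 0.30 at week 20 (log2 ± SE), a difference of -2.29 ± 0.44 (limma adjusted p = 0.0139). With WT signals this low the sizes rest on the offset, and the difference was -1.89 with an offset of 64 and -2.66 with an offset of 1. The highest WT value at week 48 was that of replicate 4, which also held muscle transcripts. Over the 19 fits that each left out 1 array the difference ran between -2.55 and -1.82, and without the 3 arrays with another tissue it was -2.02 (adjusted p = 0.0279). The other 2 probe sets of the gene gave -0.75 ± 0.44 and -0.83 ± 0.42 (unadjusted p = 0.0977 and 0.0551), and with probe sets averaged the gene was not called (-1.29, adjusted p = 0.11).

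Adamtsl2, a secreted ADAMTS-like glycoprotein that binds fibrillin microfibrils, has 1 probe set with 1 gene symbol. Its signals were 535.3, 400.8, 839.5, 512.9 and 865.9 in Tg liver and 288.3, 229.4, 202.4 and 255.8 in WT liver at week 48. At week 20 they were 1742.8, 1311.1, 1459.5, 1685.1 and 1719.7 in Tg liver and 237.8, 240.4, 58.2, 131.1 and 209.6 in WT liver. The groups did not overlap at either age, and the mean in Tg liver was 2.4-fold that in WT liver at week 48 and 9.13-fold at week 20, on the log2(signal + 16) scale. The difference was -1.93 ± 0.36 (limma adjusted p = 0.0102), was called in all 19 fits that left out 1 array, and was -1.81 (adjusted p = 0.0863) without the 3 arrays with another tissue. Cyp1b1, a cytochrome P450 known from mesenchymal cells, had effects of 1.53 at week 48 and 3.20 at week 20, a difference of -1.68 ± 0.34 (adjusted p = 0.0212). Its call ended without WT week 48 replicate 4 (adjusted p = 0.0718) and without Tg week 20 replicate 3, and its second probe set above the filter gave -0.46 ± 0.46. With probe sets averaged it was not called (-1.07, adjusted p = 0.143). Art4, an ADP-ribosyltransferase, had effects of 1.57 and 2.85 at weeks 48 and 20 (difference -1.29 ± 0.30, adjusted p = 0.0497).

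Spry1, a feedback inhibitor of receptor tyrosine kinase signalling, gave 731, 401.1, 623.2, 525.2 and 404.4 in Tg liver and 327.2, 323.6, 236.3 and 350.5 in WT liver at week 48. At week 20 it gave 1458.2, 1104.9, 1032.2, 1007.7 and 1011.6 in Tg liver and 276.7, 333.2, 165.7, 327 and 293.3 in WT liver. The lowest Tg array at week 20 was above the highest at week 48, while the WT arrays of the 2 ages overlapped. The difference was -1.23 ± 0.28 (limma adjusted p = 0.0492). This call was among the weakest: it was kept in 4 of 19 fits that left out 1 array, and that of Art4 in 1 of 19.

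For 8 genes the rise called at week 20 was not called at week 48. Tns1, which ties actin to integrins at focal adhesions, gave 1558, 1139.7, 1097.6, 1184.1 and 747.1 in Tg liver and 672.7, 1142.5, 1235.9 and 912.5 in WT liver at week 48, where the groups overlapped. The week 20 signals were 3456.5, 3768.7, 4591.4, 2533.3 and 3783.3 in Tg liver and 902.6, 1395.2, 486.9, 472.3 and 767.8 in WT liver, with no overlap. Its transgene effect was 0.21 ± 0.25 at week 48 (adjusted p = 0.616) and 2.24 ± 0.24 at week 20 (adjusted p = 1.61e-08). Its other 2 probe sets had differences of -1.19 ± 0.25 and -1.51 ± 0.32, in the same direction.

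Kcne4, a beta subunit of voltage-gated potassium channels, had effects of -0.09 at week 48 and 2.09 at week 20 (difference -2.18 ± 0.49, limma adjusted p = 0.0456). Its signals were between 35.5 and 138 in Tg and 56 and 164.6 in WT liver at week 48, and between 136.2 and 375 in Tg and 30.7 and 134.4 in WT liver at week 20. These are low signals, so the size rests on the offset: the difference was -1.55 with an offset of 64. Ace, the angiotensin-converting enzyme, gave 184.2, 203, 165.8, 148.2 and 212.5 in Tg and 211.7, 237.7, 223.1 and 224.7 in WT liver at week 48. At the younger age the gene gave 429, 390.2, 486.3, 376 and 383.4 in Tg and 176.5, 241.3, 208.7, 201.4 and 226.4 in WT liver. The Tg arrays at week 20 stood apart from the other 3 groups (difference -1.20 ± 0.22, adjusted p = 0.0102). It was called in all 19 fits that left out 1 array, but not without the 3 arrays with another tissue (adjusted p = 0.0756).

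The other 5 of these genes had week 20 effects between 0.52 and 1.02. They were Ncstn, a subunit of gamma-secretase (-0.16 at week 48, 1.02 at week 20), and Sh3pxd2a, a scaffold of podosomes (-0.34 and 0.92). Mink1, a kinase of the Ste20 family, had -0.25 and 0.53, Suco, a SUN domain protein, -0.36 and 0.52, and Irf2bp1, a partner of the transcription factor IRF2, -0.21 and 0.52. Their differences ran between -1.26 and -0.73 with adjusted p between 0.0325 and 0.05. None of the 8 genes had a called effect at week 48.

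For Syvn1, Eif3b, Nob1, Dot1l and Sidt2 a lower signal in Tg than in WT liver was called at week 48 only. Syvn1, the ubiquitin ligase of endoplasmic reticulum (ER) associated degradation, gave 1481.4, 2586.4, 2371, 1963.4 and 2993.5 in Tg liver and 5833.9, 5711.7, 8592.6 and 5971.7 in WT liver at week 48. Week 20 arrays gave 1647.1, 1721.4, 1948.9, 2925.4 and 2838.4 in Tg liver and 3071.5, 2347, 2896.7, 2743.6 and 2153.5 in WT liver. The WT arrays at week 48 stood above all others (change with age 0.04 in Tg liver, limma adjusted p = 0.908, and 1.29 ± 0.21 in WT liver, adjusted p = 0.000434). The difference was -1.25 ± 0.29 (limma adjusted p = 0.0492) and was kept in 3 of 19 fits that left out 1 array.

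Eif3b, a subunit of translation initiation factor 3, gave 1340.4, 1648.3, 1562.4, 1534 and 1534.4 in Tg and 2040.9, 2103.6, 2189.2 and 2553.6 in WT liver at week 48. Arrays at week 20 read 2164.4, 2495.2, 2433.5, 2696.7 and 2505.8 in Tg and 1929.7, 2274.9, 2216.2, 2236.9 and 1881.4 in WT liver. The 5 Tg arrays at week 48 were the lowest of the 19 (difference -0.76 ± 0.14, limma adjusted p = 0.00824). The call held in all 19 fits that left out 1 array and ended after median centring (-0.55, adjusted p = 0.0737) and without the 3 arrays with another tissue (-0.69, adjusted p = 0.0797). Nob1, which matures the small ribosomal subunit, had effects of -0.81 at week 48 and 0.12 at week 20, Dot1l, a histone H3 methyltransferase, -0.76 and 0.23, and Sidt2, a lysosomal membrane protein, -0.72 and -0.01. Their differences were -0.93, -0.995 and -0.71. Of the other 22 translation initiation factors measured, 0 were called in the difference (all genes 0.275%), and the whole list of 23 had a median of -0.01. At an unadjusted p under 0.05, 4 of the 23 were lower (all genes 7.23%) and 0 higher (all genes 5.92%). Eif3b was among the 4, as were 2 other subunits of its factor, Eif3d (-0.30 ± 0.11) and Eif3c (-0.33 ± 0.13).

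**Figure D2:**
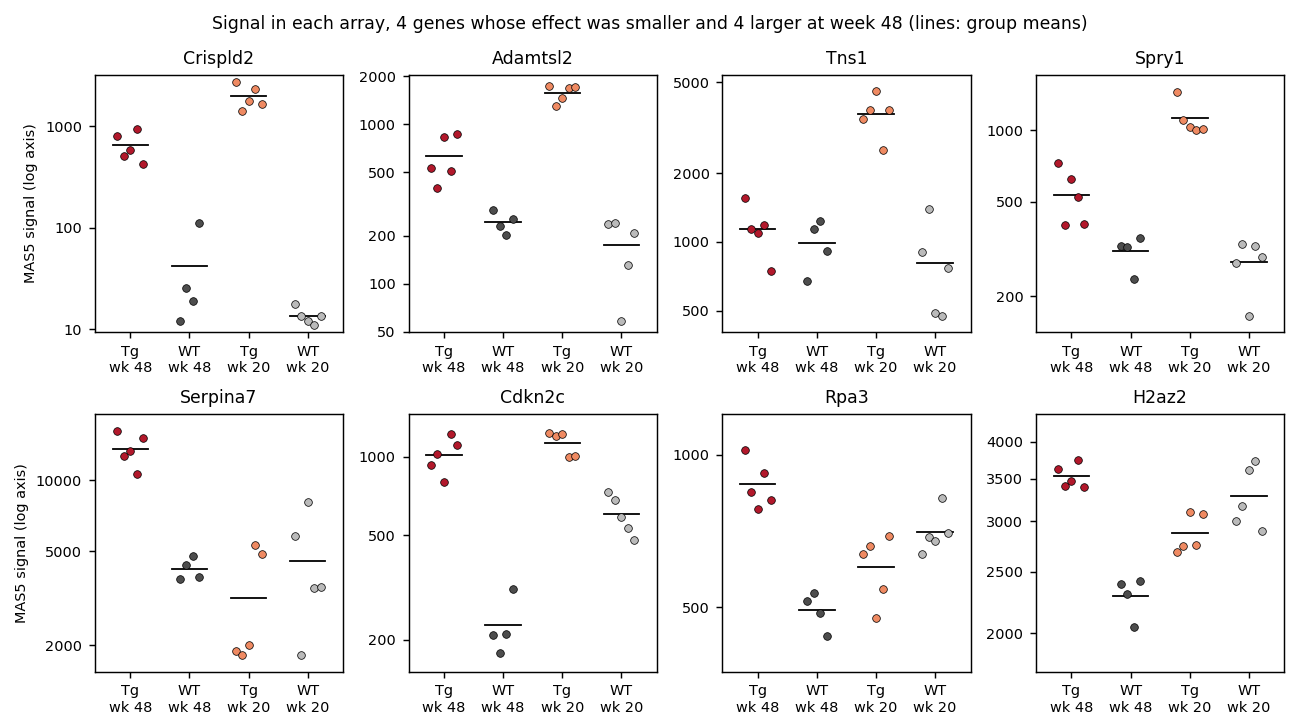
MAS5 signal (vertical log axis) in each of the 19 arrays for 8 genes, with Tg and WT at week 48 on the left and Tg and WT at week 20 on the right; points are arrays and lines are group means. In the upper row Tg signals at week 20 lie above all others, as for Tns1 (2533.3 to 4591.4); in the lower row Tg signals at week 48 lie above WT signals at week 48, as for H2az2 (3397.1 to 3747.4 against 2049.4 to 2413.3).

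The genes called higher at week 48 also fall into kinds. For 11 of the 18 the transgene effect was called at week 48 only, all as a rise in Tg liver. For 5 a fall in Tg liver was called at week 20 only. For 2 it was called at both ages: Cdkn2c grew, and 1 clone turned direction. Rpa3, Rfc3, Zwint, H2az1 and H2az2, the members of the lists for DNA replication, mitosis and chromatin of dividing cells, are shown first by their promoters.

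The promoter stretches shown are 80 bases each, given so that the letters behind the motif counts can be read. They are from RefSeq (build GRCm38.p6), from a window of 250 bases before to 50 bases after the gene start, and are printed in the direction of transcription. Capitals mark a match to CCAAT on either strand (ATTGG is its reverse complement), and in Rfc3 a match to TTTCGCGC, 1 of 4 letter strings searched for E2F factors (TTTCCCGC, TTTGGCGC, TTTCGCGC, TTTGCCGC, both strands). In the called genes no match of one motif overlapped a match of the other.
H2az1 (chr3:137864371-137864450, + strand): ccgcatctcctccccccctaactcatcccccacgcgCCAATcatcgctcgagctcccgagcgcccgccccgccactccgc
H2az2 (chr11:6444614-6444693, - strand): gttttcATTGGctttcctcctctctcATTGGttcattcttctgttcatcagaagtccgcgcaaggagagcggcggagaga
Rpa3 (chr6:8259184-8259263, - strand): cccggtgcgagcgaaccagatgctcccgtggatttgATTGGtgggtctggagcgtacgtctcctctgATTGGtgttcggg
Zwint (chr10:72654766-72654845, + strand): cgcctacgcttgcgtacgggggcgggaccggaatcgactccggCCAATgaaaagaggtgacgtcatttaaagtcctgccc
Rfc3 (chr5:151651209-151651288, - strand): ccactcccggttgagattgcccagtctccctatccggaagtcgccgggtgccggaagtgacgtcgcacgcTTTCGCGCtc
Counts are of genes with a promoter held, and a gene counts where any of its windows has a match. CCAAT was found in 11 of 17 genes called higher (64.7%), in 6 of 17 called lower (35.3%) and in 4472 of 10565 genes tested (42.3%). It was found in 21 of 26 mitosis genes (80.8%) and 19 of 28 replication genes (67.9%). A string for E2F was found in 10 of 28 replication genes (35.7%) and in 1 of 26 mitosis genes (3.85%). It was found in 1 of 17 genes called higher (5.88%), 1 of 17 called lower (5.88%) and 459 of 10565 genes tested (4.34%). A match describes letters in this window and no more.

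Rpa3, the smallest subunit of replication protein A, which coats single-stranded DNA, gave 1021, 844.9, 782.9, 919.4 and 813.6 in Tg liver and 515.6, 533, 488.3 and 439.4 in WT liver at week 48. At week 20 it gave 636.3, 661, 476.2, 543.3 and 691.5 in Tg liver and 636.9, 689.1, 676, 820.2 and 699.9 in WT liver. The groups were apart at week 48 and overlapped at week 20. With age the gene rose in Tg liver (0.54 ± 0.12, adjusted p = 0.00208) and fell in WT liver (-0.50 ± 0.12, limma adjusted p = 0.0133).

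Rfc3, a subunit of the clamp loader of DNA polymerases, had effects of 0.70 at week 48 and -0.26 at week 20 (difference 0.96 ± 0.20, limma adjusted p = 0.0331). Its signals were 448.2, 292.4, 336.5, 430.3 and 495.4 in Tg and 297.4, 235.7, 202.8 and 216.7 in WT liver at week 48, against 224.7 to 289.3 in Tg and 250 to 318.5 in WT liver at week 20, and the groups overlapped at both ages. Dck, the kinase that salvages deoxycytidine, had effects of 1.08 and -0.14 at weeks 48 and 20 (difference 1.22 ± 0.27, adjusted p = 0.044). Its signals at week 48 were between 631.1 and 989.5 in Tg and between 303.5 and 392.6 in WT liver. Its other 2 probe sets gave 0.80 ± 0.38 and 0.08 ± 0.47, and with probe sets averaged Dck was not called (0.70, adjusted p = 0.296).

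H2az2 and H2az1 code for the 2 forms of histone H2A.Z, which marks gene starts and regulatory chromatin. H2az2 gave 3623.5, 3406.1, 3464.5, 3747.4 and 3397.1 in Tg liver and 2392.7, 2303.5, 2049.4 and 2413.3 in WT liver at week 48. The week 20 signals were 2679.9, 2743.6, 3101.9, 2750.2 and 3083.1 in Tg liver and 3001.3, 3169.3, 3614.3, 3729.6 and 2894.2 in WT liver. The order of the genotypes was thus Tg above WT at week 48, with no overlap, and overlapping at week 20 (effects 0.62 ± 0.09 and -0.19 ± 0.09). H2az1 had effects of 0.31 at week 48 (adjusted p = 0.091) and -0.49 at week 20 (adjusted p = 0.00381), a difference of 0.79 ± 0.18 (adjusted p = 0.0456, kept in 5 of 19 fits that left out 1 array).

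Zwint, a kinetochore protein, gave 2715.2, 2484.7, 2525.4, 2112.1 and 2201.4 in Tg liver and 2056.5, 2268.9, 1720.2 and 1842.5 in WT liver at week 48. At the younger age the gene gave 1435.1, 1813.1, 1731.6, 1848.6 and 1902.6 in Tg liver and 2518, 2345, 2457.7, 3191.1 and 2374.4 in WT liver, where the groups did not overlap. Its difference of 0.84 ± 0.15 (limma adjusted p = 0.00824) was the difference of its brightest probe set only: the next gave 0.40 ± 0.19, -0.02 ± 0.20 and 0.16 ± 0.21, and the average of all gave 0.23 (adjusted p = 0.572).

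Cdkn2c, the p18 inhibitor of the G1 cyclin-dependent kinases, was the named gene of this group with a called rise at both ages. Its signals were 927.5, 1021.5, 802.1, 1221.7 and 1108.3 in Tg liver and 207.5, 177.5, 210.4 and 311.5 in WT liver at week 48. At week 20 they were 1234.9, 1196, 1218.6, 997.1 and 1003.8 in Tg liver and 730.6, 683.4, 588.6, 535.7 and 482 in WT liver. The Tg arrays of the 2 ages overlapped while the WT arrays at week 48 were all below those at week 20. The mean in Tg liver was 4.29-fold that in WT liver at week 48 and 1.86-fold at week 20 (difference 1.21 ± 0.24, limma adjusted p = 0.0173). The call ended without WT week 48 replicate 2 (adjusted p = 0.0571).

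Serpina7, the thyroxine-binding globulin of serum, had the largest difference among the called genes that were higher. It gave 16235.5, 12706.2, 13339.3, 10596.6 and 15141.7 in Tg liver and 3819.8, 4391.4, 4757.7 and 3902.8 in WT liver at week 48, with no overlap. Week 20 arrays gave 1888.2, 1814.4, 2004.6, 5294.2 and 4891.2 in Tg liver and 5784.7, 1821.6, 8089.8, 3490.8 and 3511.9 in WT liver, and the groups overlapped. The WT level did not pass a test of change with age (0.06, adjusted p = 0.943), and the Tg level rose by 2.25 ± 0.31 (adjusted p = 2.32e-05). In Tg liver on the peretinoin diet the change with age was -0.35 (limma adjusted p = 0.489). The call of the difference was kept in 12 of 19 fits that left out 1 array, with adjusted p = 0.0654 without Tg week 20 replicate 3, and was 2.43 (adjusted p = 0.0369) without the 3 arrays with another tissue.

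Of the other 6 genes whose rise was called at week 48 only, Ccnq, the cyclin partner of CDK10, gave 434.4, 411.6, 498.5, 386.2 and 429.7 in Tg and 259.6, 184.7, 176.9 and 243.1 in WT liver at week 48. Arrays at week 20 read 290.2, 403.7, 358.2, 411.6 and 391.3 in Tg and 442.2, 411.4, 355.3, 428.4 and 330.8 in WT liver. The WT arrays at week 48 were the lowest (difference 1.05 ± 0.19, limma adjusted p = 0.0102). Exph5, an effector of Rab27 GTPases, had effects of 0.89 and -0.40 at weeks 48 and 20, Arl15, a small GTPase, 0.75 and -0.53, and Alkbh6, an AlkB family protein, 0.95 and 0.21. Nsmaf, which couples a tumour necrosis factor receptor to sphingomyelinase, had 0.69 and -0.28. Rhpn2 had a difference of 1.20 (limma adjusted p = 0.00824), and its other probe set gave 0.97 ± 0.21. Of 19 fits that left out 1 array, Rhpn2 and Ccnq were called in 19, Nsmaf in 8 and Exph5 in 7. Arl15 and Alkbh6 were each called in 3.

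For 5 genes a fall called at week 20 was no longer called at week 48, namely Zwint, H2az1, Il18, Tor2a and Lamtor5. Il18, an inflammatory cytokine, gave 1501.5, 1345.8, 1532.9, 1189.5 and 1349 in Tg and 1152.8, 1159.6, 1246.2 and 1253.3 in WT liver at week 48. At week 20 it gave 939.4, 1006.6, 1029.4, 938.7 and 1119 in Tg and 1184.3, 1275.4, 1547.3, 1491.5 and 1719.8 in WT liver, with no overlap (difference 0.70 ± 0.16, limma adjusted p = 0.0456). Lamtor5, a subunit of the Ragulator complex on lysosomes, had effects of 0.24 and -0.50 at weeks 48 and 20. Tor2a, a torsin ATPase, had 0.10 and -0.89, but its other probe set gave a difference of 0.01 ± 0.20 and the average was not called (0.50, limma adjusted p = 0.204).

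By construction the difference equals the change with age in Tg liver minus that in WT liver, so both sides can be read. Change with age was called for 2063 genes in Tg (15.7%), 901 in WT (6.88%) and 1762 in peretinoin-fed Tg liver (13.5%). Of the 18 genes called higher in the difference, the age change was called in Tg only for 7, in WT only for 5 and in both for 6, with medians of 0.47 in Tg and -0.47 in WT liver. Of the 18 called lower, it was called in Tg only for 15 and in WT only for 3, with medians of -0.75 in Tg and 0.33 in WT liver. Tg and WT liver moved to opposite sides in 15 of the 18 called higher and 17 of the 18 called lower. Choosing genes by the difference favours such opposite movement, and its share over all genes was not counted, so these counts are description only. Over all genes tested the median change with age was -0.04 in Tg and -0.02 in WT liver.

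The 10 livers of peretinoin-fed Tg mice share no array with the difference. Of the 18 genes called lower, 14 also had a lower signal at week 48 than at week 20 in peretinoin-fed Tg liver, where 56.6% of all genes were lower (median -0.34). Adamtsl2 fell by 1.39 there (limma adjusted p = 0.000631), Crispld2 by 1.01 (adjusted p = 0.0243), Cyp1b1 by 0.82 (adjusted p = 0.0165), and Tns1 had -0.25 (adjusted p = 0.534). Of the 18 genes called higher, 7 had a higher signal at week 48 there, where 43.4% of all genes were higher (median -0.07). Rpa3, higher with age in Tg liver on the basal diet, fell by 0.34 in peretinoin-fed Tg liver (adjusted p = 0.0443), as did Exph5 by 0.72 (adjusted p = 0.0163). Whether the diets differ in their change with age was not tested here.

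**Figure D3:**
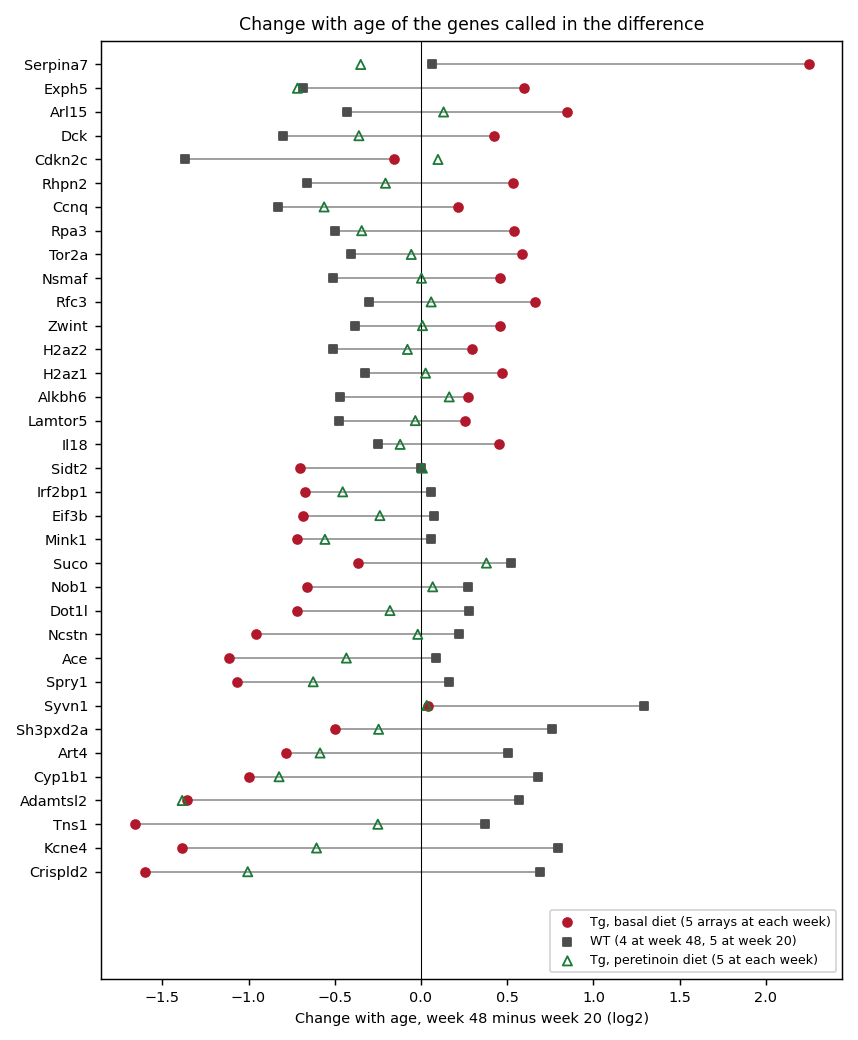
Change with age (week 48 minus week 20, log2) of the 35 named genes called in the difference, in Tg liver on the basal diet (circles), WT liver (squares) and Tg liver on the peretinoin diet (triangles). Serpina7 rose by 2.25 in Tg liver on the basal diet only, Cdkn2c and Syvn1 changed in WT liver, and Tns1, Ace and Crispld2 fell in Tg liver.

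Beyond these genes, lists of genes are given by their counts and medians, beside the median difference of all genes (-0.02). Pdgfra, Pdgfrb and the chains of collagens I, III and VI had a called transgene effect at each age, with the smaller estimate at week 48, and none of them was called in the difference. Pdgfra, the receptor of PDGF-C, gave 2849.8, 2196.4, 1860, 2170.1 and 1787.5 in Tg and 236.5, 288.6, 262.6 and 358.5 in WT liver at week 48. The week 20 signals were 4857.3, 3603.9, 4398.2, 4257.1 and 3606.4 in Tg and 257.5, 407.9, 109, 168.5 and 131 in WT liver. Tg arrays were above WT arrays at each age, and Tg arrays at week 20 above those at week 48, with effects of 2.85 ± 0.31 and 4.31 ± 0.29 (difference -1.46 ± 0.43, limma adjusted p = 0.147). Col1a1, a chain of type I collagen, had 2.77 and 4.11 (-1.34 ± 0.42, adjusted p = 0.177), and with probe sets averaged its difference was -0.59 (adjusted p = 0.374). Col1a2 had a difference of -0.92, Col3a1 of -0.92 and Pdgfrb of -0.76, with adjusted p between 0.269 and 0.326. Some members of these lists had no called effect, a lower signal in Tg liver or a larger estimate at week 48: Pdgfrl, a PDGF receptor-like protein, had effects of 1.11 and 1.01, Col8a1 0.45 and -0.12, Col12a1 0.27 and -0.14, Col18a1 -0.16 and 0.20, and Col5a3 -0.78 and -0.08.

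All matrix lists but that of proteases and inhibitors had a median difference below that of all genes. Of 18 fibrillar collagens and maturation enzymes, 0 were called in the difference and 8 were lower at an unadjusted p under 0.05 (all genes 7.23%), with a list median of -0.52. Bmp1, the procollagen C-proteinase, had -0.73 ± 0.18 (limma adjusted p = 0.0693), and Plod3, a lysyl hydroxylase, -0.44 ± 0.17 (-0.23 after median centring). Of 13 elastic fibre and microfibril genes 6 were lower at an unadjusted p under 0.05, with a median of -0.75, the lowest of the lists with 6 or more members measured. Ltbp3, which holds latent TGF-beta in microfibrils, gave 466.2, 507, 467, 537.2 and 432.9 in Tg and 195.5, 223.8, 211.1 and 331.7 in WT liver at week 48. At the younger age the gene gave 796.6, 626.6, 539.7, 639 and 495 in Tg and 199.5, 205.2, 146.4, 105.4 and 133.2 in WT liver, and its groups were apart at both ages (difference -0.91 ± 0.24, adjusted p = 0.101). Fbln5, an elastic fibre assembly protein, had 2.12 and 3.17 at weeks 48 and 20, and Fbln2, another fibulin, 0.64 and 1.39.

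Of 9 small leucine-rich proteoglycans and dermatopontin, 8 lay below the median of all genes (list median -0.67), among them Bgn (biglycan, -1.06 ± 0.35, limma adjusted p = 0.188) and Ogn (osteoglycin, -1.24 ± 0.42, adjusted p = 0.208). Dcn, decorin, had -0.04 ± 0.29, with effects of 1.20 and 1.24. Matricellular proteins had a median of -0.40 with 1 of 16 called lower (Crispld2, all genes 0.137%). Spon1, a spondin of this list, gave 262.8, 158.2, 101.9, 110.9 and 160.9 in Tg and 33.9, 66.2, 26.4 and 66.9 in WT liver at week 48. Week 20 arrays gave 617.2, 440.4, 365.3, 257.9 and 235.9 in Tg and 6.2, 24.1, 8.6, 14.8 and 39 in WT liver (difference -2.09 ± 0.53, adjusted p = 0.0806). These WT signals are low as well, and the difference was -1.42 with an offset of 64, -2.76 with an offset of 1 and -1.30 with probe sets averaged. Spon2, of the same list, had effects of 1.58 and 0.31 (difference 1.27 ± 0.54, limma adjusted p = 0.314). Stellate cell markers had medians of 1.17 at week 48 and 1.31 at week 20, and TGF-beta genes 0.82 and 1.01. Of 16 stellate cell markers, 1 was higher and 2 were lower at an unadjusted p under 0.05 (all genes 5.92% and 7.23%). The higher one, Lrat, had effects of 1.33 and 0.465 (difference 0.86 ± 0.39, limma adjusted p = 0.335). Matrix proteases and inhibitors had medians of 1.79 and 1.88, but their median difference was 0.06, with 8 of 15 above the median of all genes. In whole liver, fewer cells of a type and less RNA per cell cannot be told apart.

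**Figure D4:**
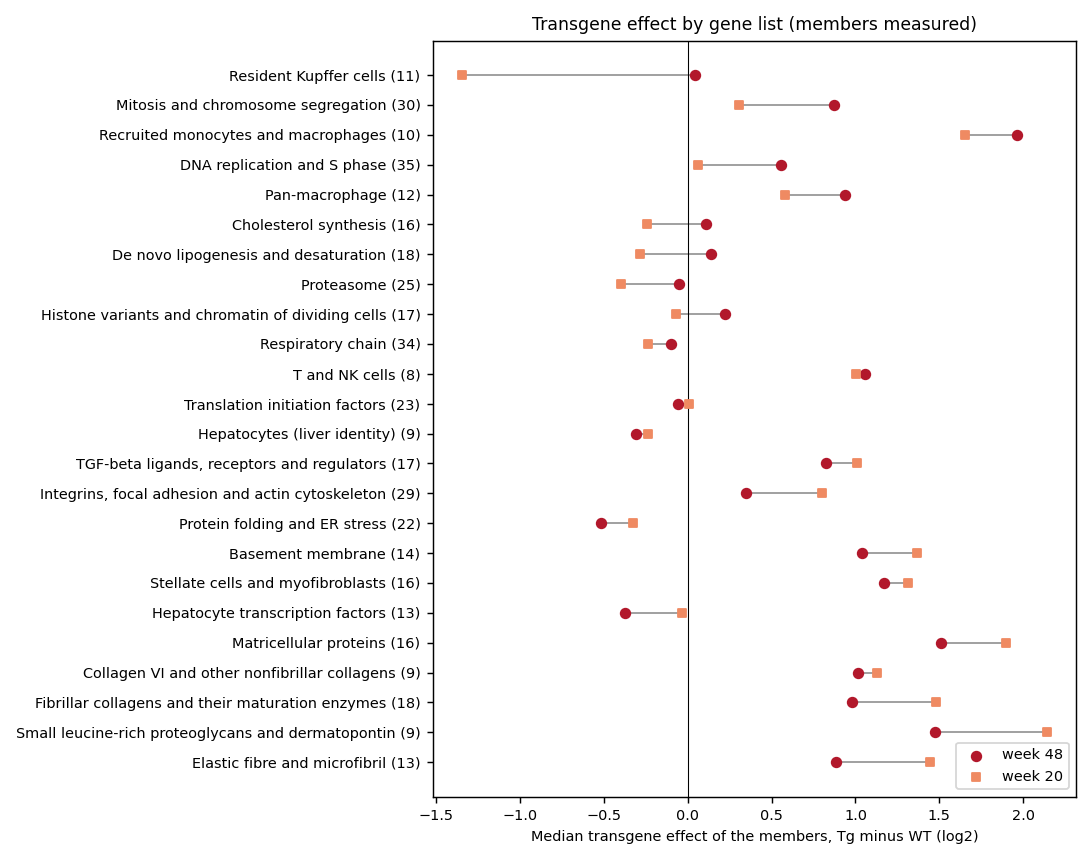
Median transgene effect (Tg minus WT, log2) of the members of 24 gene lists at week 48 (circles) and week 20 (squares), ordered by the median difference; the number of members measured stands in brackets. The 11 resident Kupffer cell markers have medians of 0.04 and -1.34, and the matrix lists at the bottom have smaller medians at week 48.

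Markers of resident Kupffer cells, the self-renewing macrophages of the liver sinusoids, had a negative median transgene effect at week 20, but not at week 48. Of 11 markers, 0 were called in the difference, 7 were higher at an unadjusted p under 0.05 (all genes 5.92%), and the list median was 1.19. The transgene effect had a median of 0.04 at week 48, with 0 called higher and 1 lower (all genes 6.58% lower). At week 20 its median was -1.34, with 6 called lower (all genes 7.87%). The mean log2 signal over the 11 markers was still lower in Tg liver at week 48, with overlap. It averaged 9.64 in Tg (9.05 to 10.39) and 10.06 in WT arrays (9.32 to 10.41). Clec4f, a lectin of Kupffer cells, gave 1222.6, 977.5, 1853.3, 329.7 and 3490.6 in Tg and 1190.7, 2686.6, 2430.4 and 2613.5 in WT liver at week 48. Arrays at week 20 read 351.9, 282, 391, 133.7 and 129.7 in Tg and 2108.7, 2008.3, 1884.1, 3167 and 2132.8 in WT liver. Tg arrays were all below WT arrays at week 20 and overlapped with them at week 48, where the Tg spread was wide (difference 2.36 ± 0.91, limma adjusted p = 0.263).

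Vsig4, a complement receptor, had effects of 0.57 and -1.15 at weeks 48 and 20, Cd5l, a secreted macrophage protein, 0.02 and -1.91, and Folr2, a folate receptor, -0.36 and -2.28. In Tg liver Clec4f, Cd5l, Folr2 and Vsig4 each rose with age (limma adjusted p between 0.0113 and 0.0397), while none of the 4 passed in WT liver. Timd4, a receptor for phosphatidylserine, had -1.19 ± 0.44 at week 48 and -2.30 ± 0.41 at week 20. Cd163, a haemoglobin scavenger receptor, was lower in Tg liver at both ages, with effects of -4.01 (limma adjusted p = 1.47e-07) and -3.53 (adjusted p = 2e-07). Some members, such as Cdh5, are also known from endothelium. Of 10 markers of recruited monocytes and macrophages, 10 were called higher in Tg liver at week 48 (all genes 14.2%). At week 20, 8 were called higher (all genes 15.8%), and 0 were called in the difference. Cx3cr1, the fractalkine receptor, had effects of 3.87 ± 0.40 and 3.27 ± 0.38, Gpnmb 3.57 ± 0.49 and 2.95 ± 0.47, and Cd9 1.95 ± 0.26 and 0.90 ± 0.24 (difference 1.05 ± 0.36, adjusted p = 0.208). Of 12 pan-macrophage markers 5 were called higher at week 48 (all genes 14.2%) and 1 at week 20 (all genes 15.8%).

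Genes of dividing cells had a larger median effect at week 48. All 30 mitosis genes measured lay above the median difference of all genes, and the list median was 0.62. Of these, 1 was called higher (Zwint, all genes 0.137%) and 4 were higher at an unadjusted p under 0.05 (all genes 5.92%). At week 48, 9 of the 30 were called higher in Tg liver (list median 0.88, all genes 14.2% higher). At week 20, 0 were called higher and 1 lower (list median 0.31, all genes 15.8% higher). Cdk1, the mitotic kinase, gave 158.7, 129.7, 184.4, 315.4 and 331.8 in Tg and 87.3, 24.1, 58.1 and 11.8 in WT liver at week 48. At week 20 it gave 177.7, 217.3, 189.9, 241 and 263.1 in Tg and 266.2, 209.4, 93.1, 174 and 111.2 in WT liver. The Tg levels of the 2 ages overlapped, and the WT change with age was -1.70 (adjusted p = 0.0257), with a difference of 1.67 ± 0.65 (limma adjusted p = 0.263). Mki67, the proliferation antigen Ki-67, had effects of 2.15 and 0.43 (1.72 ± 0.72, adjusted p = 0.309), and Cenpa, the centromeric histone, 1.14 and -0.02. The sizes for these low signals rest on the offset: with an offset of 64 the difference was 1.08 for Cdk1 and 1.03 for Mki67, and with an offset of 1 it was 2.11 and 2.34. The median change with age of the mitosis list was 0.27 in Tg and -0.39 in WT liver.

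Of 35 replication genes 30 lay above the median of all genes, 2 were called higher (Rpa3, Rfc3, all genes 0.137%) and the list median was 0.42. At week 48, 12 were called higher and 1 lower in Tg liver (all genes 14.2% and 6.58%). At week 20, 2 were called higher and 3 lower (all genes 15.8% and 7.87%). Gmnn, the licensing inhibitor geminin, had effects of 0.99 and 0.20 (difference 0.79 ± 0.22, limma adjusted p = 0.116), and Rfc2, another clamp loader subunit, 0.71 and 0.01. Mcm2, a helicase subunit, had -0.22 and 1.14 (-1.36 ± 0.43, adjusted p = 0.177), and with probe sets averaged its difference was -0.54 (adjusted p = 0.605). The median change with age of the replication list was 0.19 in Tg and -0.19 in WT liver. In the list of histone variants and chromatin of dividing cells 2 of 17 were called higher (H2az1, H2az2, all genes 0.137%), and Hmgb3, a high mobility group protein, had 0.68 ± 0.21. At an unadjusted p under 0.05, 6 of the 17 were higher (all genes 5.92%) and 1 was lower (all genes 7.23%). The lower one was H3f3a, with -1.03 ± 0.46.

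Proteasome subunits had small differences, most of them above the median of all genes. Of 25 subunits 23 lay above the median of all genes, 13 were higher at an unadjusted p under 0.05 (all genes 5.92%) and 0 were called. At week 20, 20 of the 25 were called lower in Tg than in WT liver (list median -0.40, all genes 7.87% lower). At week 48, 0 were called lower and 2 higher (list median -0.05, all genes 6.58% lower and 14.2% higher). Psma2 averaged 5391 ± 271 in Tg and 5182 ± 233 in WT liver at week 48 (SD, n = 5 and 4), and 4845 ± 447 in Tg and 6385 ± 411 in WT liver at week 20 (n = 5 each). Its groups overlapped at week 48 and not at week 20 (difference 0.46 ± 0.11, limma adjusted p = 0.0505). Psma5 had effects of -0.05 and -0.68 (0.63 ± 0.15, adjusted p = 0.0601) and Psma1 0.05 and -0.53 (0.58 ± 0.14, adjusted p = 0.0746). With probe sets averaged the difference of Psma1 was -0.53. The inducible subunits Psmb8 and Psmb9, of the immunoproteasome, had -0.11 ± 0.29 and -0.25 ± 0.33. Of 34 respiratory chain genes 0 were called in the difference, with a median difference of 0.15. In Tg liver 1 was called lower at week 48 (all genes 6.58%) and 14 at week 20 (all genes 7.87%). Relative to all genes, the respiratory chain median was 0.16, and 0.01 after quantile normalisation. That of the proteasome was 0.31, and 0.21 after quantile normalisation.

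**Figure D5:**
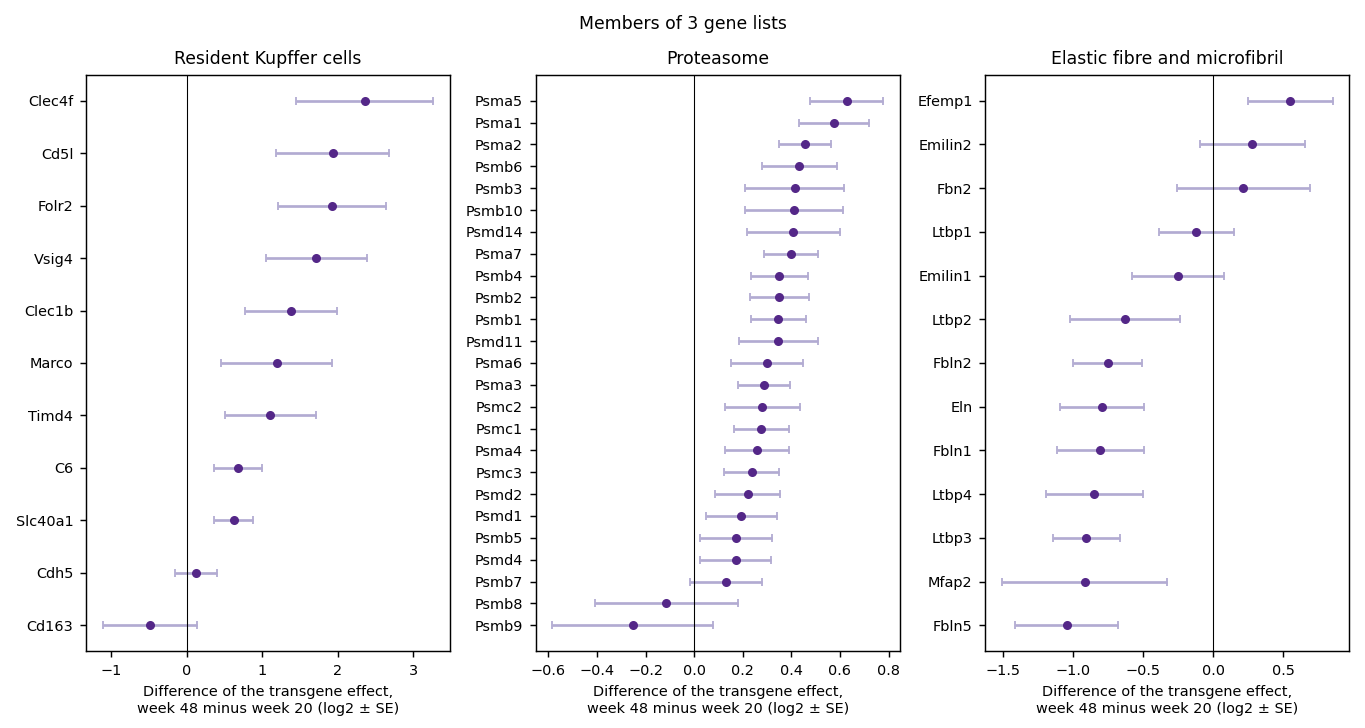
Difference of the transgene effect (week 48 minus week 20, log2, horizontal axis) of each measured member of the resident Kupffer cell, proteasome and elastic fibre lists; points are estimates and bars their standard errors. Clec4f leads the Kupffer markers at 2.36, the proteasome subunits lie between -0.25 and 0.63, and 9 elastic fibre genes lie below -0.2.

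Lipid genes split. Cidea, a lipid droplet protein, gave 28.9, 175, 37.3, 262.2 and 9.3 in Tg liver and 5045.4, 6188.6, 2313.9 and 2979 in WT liver at week 48. The week 20 signals were 11.6, 35.7, 4.5, 9.6 and 26.5 in Tg liver and 11.4, 28, 70.7, 163.4 and 89.9 in WT liver. It was high in WT arrays at week 48 alone, and with a wide error the difference of -4.40 ± 1.13 did not pass (limma adjusted p = 0.0834). It passed in the fit on the 19 arrays alone (adjusted p = 0.0314), with the replicate block (0.036) and with an offset of 64 (0.0288), and in no other setting. Fabp5, a fatty acid binding protein, had effects of 1.54 and -0.26 (1.80 ± 0.56, adjusted p = 0.172), and Me1, malic enzyme, -0.11 and -1.26 (1.15 ± 0.37, adjusted p = 0.181). Of 16 cholesterol synthesis genes 14 lay above the median of all genes (list median 0.40, 0 called), and the median change with age was 0.91 in Tg and 0.50 in WT liver. Of 18 lipogenesis genes 16 lay above it (list median 0.36, 0 called), with a median change with age of 0.65 in Tg and 0.23 in WT liver. The mean log2 signal of the cholesterol list at week 20 lay between 10.1 and 11.49 in Tg arrays. In WT arrays of that age it lay between 9.59 and 11.46. The lipogenesis list lay between 11.18 and 12 in Tg and between 11.35 and 12.46 in WT arrays at week 20. For both lists the groups thus overlapped at that age.

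Protein folding and ER stress genes had lower median values in Tg liver at both ages (list median difference -0.24). In the difference 1 was called lower, Syvn1 (all genes 0.137%). Of 22 genes, 15 were called lower at week 48 (all genes 6.58%) and 9 at week 20 (all genes 7.87%). Herpud1, which works with Syvn1 in ER-associated degradation, had effects of -0.98 ± 0.24 and -0.09 ± 0.22 (limma adjusted p of the difference 0.221). Sel1l, the Syvn1 adaptor, had -1.01 and -0.41, and Atf6, a sensor of unfolded protein, -0.15 and 0.46. Hepatocyte transcription factors had a median difference of -0.34, with Hnf4a at -0.53 and -0.18 and Foxa2 at -0.72 and 0.10, and 0 of 13 called. The clock gene Per2 had -1.01 and 0.64 (-1.65 ± 0.52, adjusted p = 0.177), and the labels give no hour of sampling.

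Of the genes called in the same direction at both ages, those whose effect shrank most were Crispld2, Spon1, Adamtsl2, Dpep1, Cyp1b1, Hectd2os, Thsd7a and Gdf10. Dpep1, a membrane dipeptidase, gave 462.3, 283.4, 274.2, 391.5 and 292.4 in Tg and 147.5, 60.1, 103.7 and 168 in WT liver at week 48. At the younger age the gene gave 1293.6, 854.3, 975.6, 567.8 and 503.7 in Tg and 86.3, 92, 84, 69.7 and 50.5 in WT liver (difference -1.70 ± 0.40, limma adjusted p = 0.0519). Gdf10, a TGF-beta family ligand, had 2.24 and 3.75, and Thsd7a, a thrombospondin domain protein, 1.22 and 2.80. Those whose effect grew most were Aplnr, Afp, Igkv9-120, Obp2a, Ly6d, Wipf3, Dct and Slc22a7, none of them called in the difference (adjusted p between 0.165 and 0.471).

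Aplnr, the apelin receptor, gave 164.8, 395.7, 331.7, 885.4 and 305.4 in Tg and 3.4, 5.1, 7 and 13.4 in WT liver at week 48. Week 20 arrays gave 61.3, 160.4, 54.6, 244.1 and 95.7 in Tg and 4.9, 34.6, 4.5, 6.6 and 1.3 in WT liver. WT signals were near the floor at both ages, and the difference was 1.70 ± 0.70 (limma adjusted p = 0.29). Afp, the fetal serum protein that also marks liver tumours, gave 221.8, 278.5, 552.3, 620.1 and 701.1 in Tg and 55.1, 42.4, 56.1 and 62 in WT liver at week 48. Arrays at week 20 read 317, 213.3, 163.8, 520.5 and 430 in Tg and 329.4, 70, 180.8, 90.2 and 109.4 in WT liver. Tg arrays of the 2 ages overlapped and the WT arrays at week 48 were the lowest (difference 1.61 ± 0.53, adjusted p = 0.188). Slc22a7, an organic anion transporter, and Dct, a tautomerase, were lower in Tg liver and more so at week 48 (-3.65 and -2.32, and -3.92 and -2.56).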

How the data were processed

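Liver RNA was hybridised to 1 Affymetrix array per sample. The deposited signal is an intensity on a linear scale; the submitters' processing notes name MAS5 without a version. The 2% trimmed mean of each array lay between 500.003 and 500.004. Of 45101 probe sets, 64 were controls, 34945 had 1 gene symbol, 932 several and 9160 none; 34741 matched RefSeq's table by Entrez ID. The number of arrays limits the precision.

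Signals were taken as log2(signal + 16). The 60% of probe sets with the highest mean signal were kept, and the brightest with 1 symbol stood for each gene, leaving 13099 genes. limma 3.58.1 under R 4.3.3 fitted 7 groups over all 34 arrays, which share 1 estimate of the spread, moderated along mean intensity (lmFit, eBayes). A gene was called where its two-sided p, adjusted over all genes by the Benjamini-Hochberg method, was under 0.05. Effects are given with moderated standard errors. Unless a sentence says otherwise, a pair of effects is given for week 48 and then week 20. The members, gene lists and tests were chosen with earlier results of these data known, and no list was tested as a set. The named genes were a panel of 10, each gene called in the difference except clones and Gm, Rik and LOC genes, 3 of smallest p per list, the 8 effects called in the same direction at both ages that shrank most and the 8 that grew most, and list members a sentence needs. On simulated arrays with 200 changed genes among 13099, 14.5%, 52.8% and 87.9% of differences of 1.5, 2 and 4-fold were called, with 5 unchanged genes among 110 calls. The simulated noise was normal and independent for each gene and array, without effects shared by the genes of an array. These rates may not carry over to the data, where 36 genes were called. Alternatives were another offset, filter, scaling, probe set rule or fit, the 19 arrays alone without and with a replicate block, and each array left out. No array was found deposited more than once (highest correlation 0.982, with 0.293% of signals identical).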

Additional observations from a re-analysis of the deposited data

Results flagged for a closer look

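The transgene effect differed between the 2 ages by the interaction test (limma, adjusted p under 0.05) for 35 named genes. It was higher at week 48 for Serpina7 (2.18), Exph5 (1.28), Arl15 (1.27), Dck (1.22), Cdkn2c (1.21), Rhpn2 (1.20), Ccnq (1.05), Rpa3 (1.03), Tor2a (0.99), Nsmaf (0.96), Rfc3 (0.96), Zwint (0.84), H2az2 (0.81), H2az1 (0.79), Alkbh6 (0.74), Lamtor5 (0.73) and Il18 (0.70), and lower for Crispld2 (-2.29), Kcne4 (-2.18), Tns1 (-2.03), Adamtsl2 (-1.93), Cyp1b1 (-1.68), Art4 (-1.29), Sh3pxd2a (-1.26), Syvn1 (-1.25), Spry1 (-1.23), Ace (-1.20), Ncstn (-1.18), Dot1l (-0.99), Nob1 (-0.93), Suco (-0.88), Mink1 (-0.78), Eif3b (-0.76), Irf2bp1 (-0.73) and Sidt2 (-0.71), as log2 differences.

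In 25 of 400 groups of 4 or 5 arrays, 1 array stood apart from the others, and chance gives about 1 in 20. Of signals, these were Aplnr at 34.6 in WT week 20 replicate 2, Bgn at 589.5 in WT week 20 replicate 3, Clec4f at 1190.7 in WT week 48 replicate 1, Clec4f at 3167 in WT week 20 replicate 4, Cx3cr1 at 796.2 in Tg week 48 replicate 4, Gpnmb at 54.6 in WT week 48 replicate 4 and H2az1 at 3376.9 in WT week 20 replicate 5. A further set was Kcne4 at 134.4 in WT week 20 replicate 4, Lamtor5 at 3450 in WT week 48 replicate 2, Mink1 at 359.2 in WT week 48 replicate 1, Ncstn at 516.2 in Tg week 48 replicate 2, Nob1 at 660.7 in Tg week 20 replicate 2, Rfc3 at 289.3 in Tg week 20 replicate 5 and Sc5d at 12254.8 in WT week 48 replicate 3. The others were Sh3pxd2a at 325.9 in WT week 20 replicate 4, Spry1 at 1458.2 in Tg week 20 replicate 1, Spry1 at 165.7 in WT week 20 replicate 3, Syvn1 at 8592.6 in WT week 48 replicate 3, Thsd7a at 1.7 in WT week 20 replicate 5, Wipf3 at 307 in Tg week 48 replicate 1 and Zwint at 3191.1 in WT week 20 replicate 4. Of array measures, the mean log2 level of skeletal muscle genes was 11.43 in WT week 48 replicate 4. That of pancreatic acinar genes was 11.34 in Tg week 48 replicate 4 and 11.06 in Tg week 20 replicate 5. The ratio of 3' to 5' Gapdh signal was 0.848 in WT week 20 replicate 3.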

How the results depend on the processing

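The count of 36 genes called in the difference (18 higher, 18 lower) was the least stable. It was 20 (8 higher) with no filter on low signals, 60 (55 higher, 5 lower) after median centring, 57 (37 lower) with probe sets averaged and 9 (7 higher, 2 lower) without the 3 arrays carrying another tissue, a setting chosen after seeing the data. Leaving out 1 array gave between 12 and 66 calls, between 5 and 30 of them higher and between 6 and 36 lower. Change with age in WT liver, called for 901 genes, gave 500 without the 3 arrays, 537 with the Actb ratio as a covariate (also chosen after seeing the data), and between 518 and 902 when 1 array was left out. The other counts stayed within 1.5 times in all settings: between 2075 and 2934 for the effect at week 48, 2348 and 3412 at week 20, and 1501 and 2391 for change with age in Tg liver. A limma fit on the 19 arrays alone called 33 genes (14 higher, 19 lower), 22 of them among the 36. Not called there were, among others, Serpina7 (adjusted p = 0.0586), Spry1 (0.0594), Syvn1 (0.0592), Rfc3 (0.0511) and Cyp1b1 (0.0507). The replicate number as a block, on the same 19 arrays, gave 49 calls (19 higher, 30 lower), 25 of them among the 36. The numbers are not known to pair samples: 8 of 27 same-number pairs of arrays correlated over 0.1, and 8 of 19 arrays correlated best with their own number. Of the 35 named genes called, 10 stayed called whichever array was left out. The difference of Acta2, not called at -0.39, ran between -0.66 and 0.154 when 1 array was left out (0.154 without WT week 48 replicate 4) and was 0.069 without the 3 arrays. That of Psma1, not called at 0.58, was -0.530 with probe sets averaged. The cause of these shifts was not tested. Of named genes not called, Dpep1 and Psma2 passed in 8 settings each, Psma5 in 5, Bmp1 and Cidea in 3, Gdf10 and Psma1 in 2, and Gmnn, Ltbp3, Mcm2, Pdgfra and Thsd7a in 1. Signals near the floor, as for Crispld2, Spon1, Kcne4, Aplnr and Cidea, limit the size of a fold change.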
